A study of Zea mays with 24 samples.

Results

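In the developing maize leaf, 96 genes had a trough of transcript in the ligule, at least 2-fold below either neighbouring region, both when all cell layers were sampled and when only the adaxial L1 was sampled. They were chosen from the group means of the deposited FPKM (fragments per kilobase of transcript and per 1e6 mapped fragments). A gene had to reach 2 FPKM in blade and in sheath in both kinds of sample, and its ligule mean had to lie at least 2-fold below the lower of blade and sheath in both. Of 109715 gene identifiers, 14110 passed the 2 FPKM floor and 100 met the thresholds. The rule leaves out 5 identifiers, of which 4 met the thresholds (lox4, mips2, bHLH30 and GRMZM5G850129, a growth-regulating factor gene). The remaining 96 genes were 0.68% of those past the floor. Because these same means chose the genes, the ligule trough is described below and not tested. Another 742 genes met the thresholds in the adaxial L1 only, 26 in all layers only, and 66 genes were at least 2-fold above the higher neighbour in both kinds of sample.

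The ligule is a fringe of tissue at the boundary between the blade and the sheath of a grass leaf. It grows out from the preligule band, a strip of small cells formed by extra divisions in the adaxial epidermis. The SBP-box transcription factor gene liguleless1 (lg1) is expressed in the band and is required for ligule and auricle formation. A gene that is low in the band and higher on both sides of it is interrupted at the boundary of blade and sheath. Its level may or may not also differ between these domains.

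The samples were laser-microdissected from Zea mays, cultivar B73, and fall into 8 groups of 3 libraries, each library pooling 5 to 6 plants. In wild-type primordia at plastochron 7 (P7), a rectangle 100 µm high on the preligule band was called ligule, and rectangles of like size 50 µm above and below it, pre-blade and pre-sheath, are called blade and sheath here. These 3 regions were taken through all cell layers (replicates 3, 4 and 5) and from the adaxial L1, the upper epidermis, alone (replicates 1, 2 and 3). At plastochron 6 (P6), tissue between 400 and 900 µm from the leaf base was taken through all layers from lg1-R mutants and their wild-type siblings (replicates 1, 2 and 3), a stretch that is not a dissected preligule band. The question put by the study was which genes could pattern the line where blade and sheath meet, and which act downstream of LG1. All layers and the adaxial L1 share no library and carry different replicate numbers, and the labels do not say whether they were collected or amplified together. Nothing in the labels ties replicates to separate sowings, so p-values measure the spread between these libraries.

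Total counts per library, in units of 1e6, ran from 3.82 to 52.7, and the 3 ligule libraries of the adaxial L1 held 11.3, 3.82 and 21.9. The summed FPKM of 7 epidermis marker genes was 202 to 336 in the all-layers libraries and 481 to 1002 in the adaxial L1. The marker gl1 was listed at 0 in all 3 groups of the adaxial L1. Within the adaxial L1 the same sum was lower in the ligule (481 to 568) than in the blade (623 to 788) and the sheath (720.1 to 1002), while that of 4 vascular and inner tissue markers was 209 to 295 in the ligule, 128 to 177 in the blade and 170 to 220.0 in the sheath. In all layers the inner tissue sum was 151 to 180 in the ligule, 107 to 116 in the blade and 120.2 to 124 in the sheath, and the epidermis sum overlapped between ligule and blade. The inner tissue sum, like the epidermis sum, was thus higher in the adaxial L1 than in all layers in each region. It therefore does not serve as a measure of inner tissue in these samples. Of the inner tissue markers, sut1 was at 0 in all adaxial L1 groups and phb1 in ligule and sheath. The part of these marker differences in the ligule trough was not tested. In such bulk samples, fewer cells of a type and less RNA per cell cannot be told apart.

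The ratios that chose the members were lower in the epidermis than in whole pieces. The ligule mean divided by the lower neighbour, on a log2 scale, had a median of -1.5 over the 96 genes in all layers and -2.56 in the adaxial L1, where genes past the floor had medians of 0.21 and 0.25. The adaxial L1 value was the deeper one in 79 of 96 genes (82.3%), against 45.8% of the genes past the floor, and the median difference between the log2 ratios was -0.99. The rule selected on both ratios, so nothing is read from the contrast with unselected genes. In the adaxial L1, 39 genes lay at least 8-fold below the lower neighbour, against 7 in all layers. At least 4-fold in both were 19 genes, and at least 8-fold in both were 4. Across the 96 genes the depths in the 2 kinds of sample went together only loosely (Spearman's rho = 0.31, a description across genes that share libraries).

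**Figure D1:**
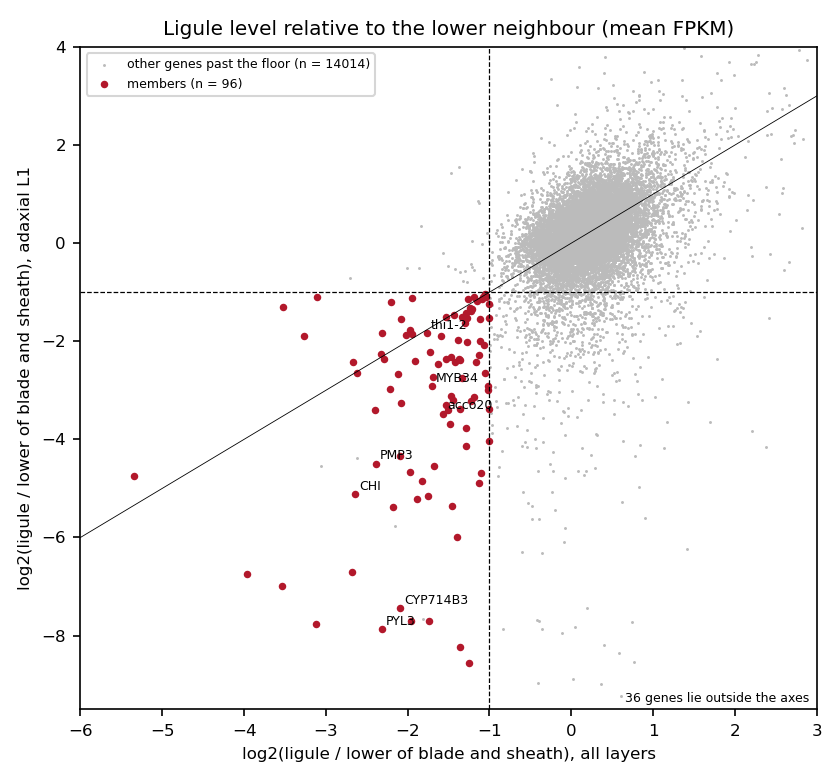
Log2 ratio of the mean ligule FPKM to the lower of the blade and sheath means, in all layers (x axis) and in the adaxial L1 (y axis), for genes past the 2 FPKM floor, with the 96 members in red, 7 of the named ones labelled, the 2-fold thresholds dashed and equal ratios on the solid line. Most members lie below the line (79 of 96), and the 4 grey genes that meet both thresholds were left out by identifier.

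The single libraries follow the means in most members. In 79 of the 96 genes all 3 ligule libraries lay below all 6 blade and sheath libraries in all layers, in 79 in the adaxial L1, and in 67 in both. Of the 14110 genes past the floor, 3.18%, 6.62% and 1.04% had such a separation. The rule used these libraries, so nothing is read from the excess. In the adaxial L1 ligule 3 members had no count in any library, which puts GRMZM2G180190 at least 34.6-fold, GRMZM5G887276 at least 21.9-fold and GRMZM2G056513 at least 10.4-fold below the lower neighbour when 3 counts over the group are taken as the floor. Another 8 had 1 to 3 counts there, and no member had so few in the all-layers ligule. The ligule and sheath libraries of GRMZM2G056513 overlapped in both kinds of sample. Its adaxial L1 sheath had 16.5, 0 and 0.242 FPKM, so that sheath mean rests on replicate 1. In all layers its sheath replicate 4, at 0.554 FPKM, lay below ligule replicate 4, at 1.96. The floors and the counting intervals below cover counting error only.

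**Figure D2:**
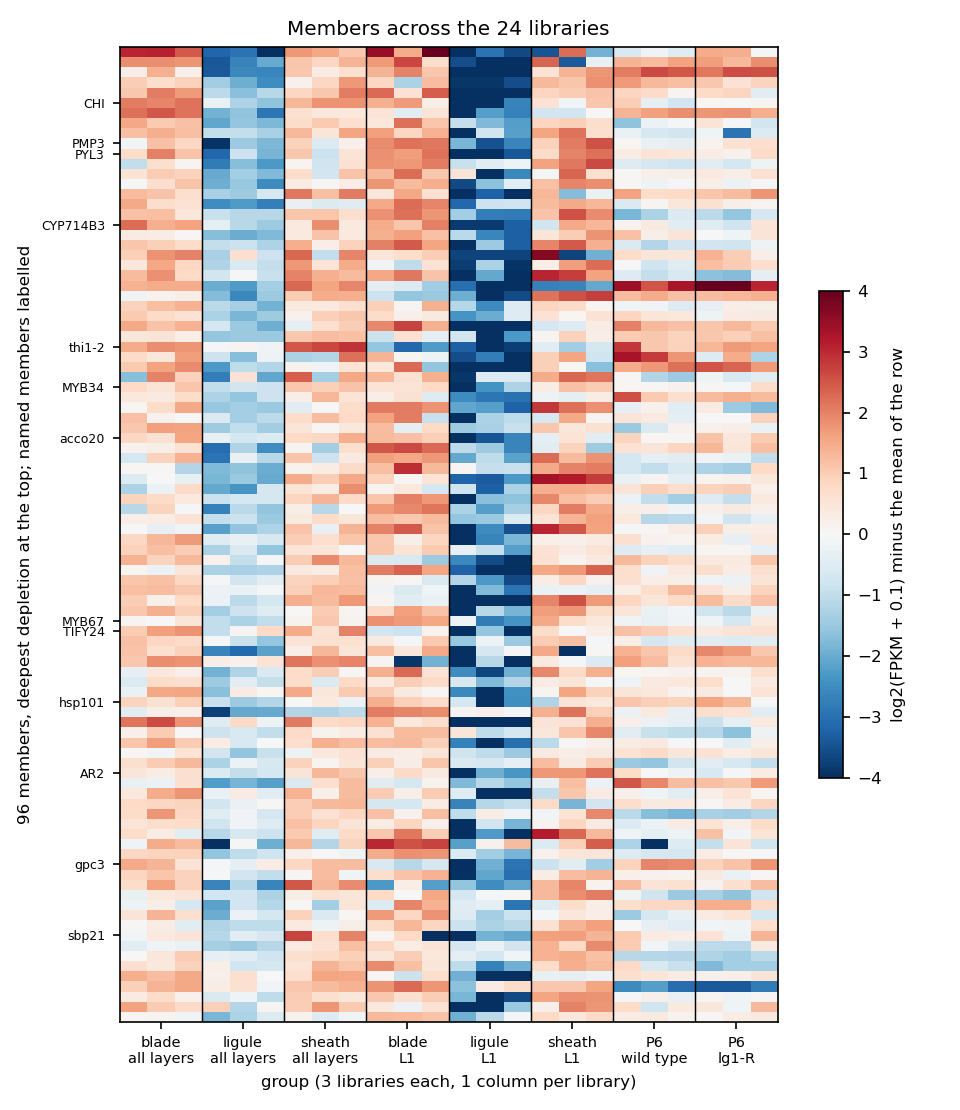
Log2(FPKM + 0.1) of the 96 members in each of the 24 libraries, minus the mean of the row, with 3 columns per group and the deepest trough at the top. The ligule columns are mostly blue in both kinds of sample and mostly darker in the adaxial L1. Rows low in the epidermis, such as GRMZM2G031904, can lie above the row mean in the all-layers ligule. The wild-type P6 mean lies between the all-layers ligule and its lower neighbour in 53 of the 96.

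At the edge of the rule, the members nearest the 2-fold threshold were GRMZM2G438438 (2.00-fold below the lower neighbour in all layers), GRMZM5G845960 (2.00-fold) and AC233893.1_FG006 (2.01-fold), each 2.87-fold or more below it in the adaxial L1. Just outside were GRMZM2G005384 (1.997-fold), GRMZM2G101058 (1.996-fold) and GRMZM5G803164 (1.991-fold). Membership therefore has no natural gap at the threshold.

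For 67 of the 96 identifiers 1 locus could be matched in RefSeq's annotation of Zm-B73-REFERENCE-NAM-5.0, 1 of them (GRMZM5G833991) a long noncoding RNA. A gene name other than a locus code exists for 13 (13.5%), against 9.91% of the genes past the floor. The rest are given by identifier, with no function stated. GRMZM2G126646 and the gene acco20 lie near each other in that assembly, with 1 gene between them, and no other pair of matched members lay so close. Both are described below.

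Enzymes of specialised and primary metabolism make up the first group of named members. CHI (GRMZM2G155329) encodes chalcone isomerase, which closes the ring of flavonoids. Its FPKM in all layers was 14.2, 13.3 and 15.6 in blade libraries, 2.83, 1.38 and 1.04 in ligule libraries and 8.66, 11.9 and 12.1 in sheath libraries. Epidermal values were 9.27, 11.2 and 4.09 in blade libraries, 0, 0 and 0.446 in ligule libraries and 5.14, 3.12 and 7.24 in sheath libraries. Ligule and neighbour libraries did not overlap in either, and the ligule was 6.23-fold below the lower neighbour in all layers and 34.7-fold in the adaxial L1.

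The thiazole synthase gene thi1-2 (GRMZM2G074097), which makes the thiazole part of thiamine, was far lower in the epidermis than in whole pieces. In all layers it stood at 84.7, 110.2 and 104 FPKM in blade libraries, 28.2, 32.1 and 27.5 in ligule libraries and 169, 191 and 224 in sheath libraries. In the adaxial L1 it stood at 10.2, 3.31 and 6.18 in blade libraries, 3.02, 0.372 and 2.14 in ligule libraries and 22.2, 11.5 and 18.5 in sheath libraries. The trough was of like depth in both (3.40-fold and 3.56-fold), but at a level more than 10 times lower in the epidermis for each region.

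The gene gpc3 (GRMZM2G071630), for a cytosolic glyceraldehyde-3-phosphate dehydrogenase of glycolysis, had means of 51.4 ± 17.0 FPKM in blade, 22.6 ± 4.85 in ligule and 48.8 ± 7.58 in sheath pieces in all layers (SD, n = 3, as for all means below). The corresponding adaxial L1 means were 12.9 ± 2.46, 3.10 ± 2.68 and 12.4 ± 3.96. It too was lower in the epidermis than in whole pieces, and its ligule libraries lay below all neighbours in both.

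Genes tied to hormones form the second group. The gene acco20 (GRMZM2G126732) encodes an ACC oxidase, the enzyme of the last step of ethylene synthesis. Its FPKM in all layers was 80.3, 69.4 and 135 in blade libraries, 36.8, 28.1 and 31.3 in ligule libraries and 79.4, 81.0 and 125 in sheath libraries. Its adaxial L1 values were 109, 103 and 87.9 in blade libraries, 1.07, 4.02 and 7.19 in ligule libraries and 35.4, 66.8 and 34.3 in sheath libraries. The ligule epidermis thus held the lowest levels by a wide margin, 11.1-fold below the sheath, against a 2.96-fold trough in all layers.

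PYL3 (GRMZM2G154987) belongs to the family of abscisic acid receptors. In all layers its FPKM was 3.11, 7.77 and 4.18 in blade libraries, 0.121, 0.995 and 0.431 in ligule libraries and 4.03, 0.965 and 2.72 in sheath libraries. Sheath replicate 4 fell within the ligule range there. PYL3 in the adaxial L1 ligule had 2 counts over 3 libraries against 445 in the blade, a 145-fold difference with a 95% counting interval of 39.8 to 1198, and blade and sheath libraries lay between 3.19 and 8.75 FPKM.

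CYP714B3 (GRMZM2G106408) encodes a cytochrome P450 of the CYP714 family, whose rice members oxidise gibberellins. It stood at 4.86 ± 1.49 FPKM in blade, 0.664 ± 0.304 in ligule and 2.82 ± 1.90 in sheath pieces in all layers. Its adaxial L1 ligule had 2 counts against 224 in the sheath, a 116-fold difference (95% counting interval 31.8 to 965). Sheath replicate 1 of the adaxial L1 was low at 0.739 FPKM, yet above all 3 ligule libraries. TIFY24 (GRMZM2G126507), of the plant family that includes the JAZ repressors of jasmonate signalling, was at 13 ± 3.54, 4.91 ± 2.77 and 12.4 ± 5.6 FPKM in blade, ligule and sheath of all layers. Its ligule replicate 5, at 7.72 FPKM, exceeded sheath replicate 4, at 6.70, and the adaxial L1 libraries did not overlap.

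Transcription factor genes form the third group. MYB34 (GRMZM2G125522) had 12.6, 10.6 and 15.6 FPKM in blade libraries, 3.57, 4.26 and 4.05 in ligule libraries and 15.3, 13.9 and 15.9 in sheath libraries of all layers. Its epidermal values were 10.5, 10.6 and 12.5 in the blade, 0.165, 1.3 and 2.98 at the ligule and 8.92, 16.4 and 14.7 in the sheath. Ligule libraries lay below all neighbours in both kinds of sample, and blade and sheath libraries overlapped.

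MYB67 (GRMZM2G089244) was scarce, with 2.59 ± 0.486, 1.01 ± 0.115 and 3.26 ± 1.37 FPKM in blade, ligule and sheath of all layers and 7.41 ± 0.728, 0.846 ± 0.968 and 4.44 ± 1.84 in the adaxial L1. The SBP-box gene sbp21 (GRMZM2G148467), of the family of lg1, stood at 3.72 ± 0.800, 1.79 ± 0.451 and 12.5 ± 7.64 FPKM in all layers. Its adaxial L1 blade libraries were uneven (3.26, 5.36 and 0.0939 FPKM), and blade replicate 3 fell among the ligule libraries, which had 0, 0.741 and 0.646. While sbp21 had a trough, lg1 itself peaked in the same samples, at 1.38, 11.7 and 5.17 FPKM in the all-layers ligule against at most 0.211 in the neighbours.

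Members in gene families listed by name are given here as counts, beside the 0.68% of all genes past the floor that were members. Of 15 SBP-box genes past the floor sbp21 was the 1 member, and the median log2 ratio of the family was 0.45 in all layers and 0.51 in the adaxial L1. Of 18 MYB genes past the floor, MYB67 and MYB34 were members, with family medians of 0.24 and 0.59. Among 9 heat shock and dehydrin genes past the floor, hsp101 was the 1 member. No member came from 16 growth-regulating factor genes, 20 auxin genes, 11 cytokinin genes, 11 lipoxygenase and jasmonate genes, 15 bHLH genes, 26 ribosomal protein genes or 6 homeobox genes past the floor, after the 4 genes named at the start had been left out. The lists were built from gene names, and the member TIFY24 was not on the lipoxygenase and jasmonate list.

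The remaining named members act at membranes or in stress, except AR2. PMP3 (GRMZM2G477325) is named for a small hydrophobic plasma membrane protein known from yeast. Its FPKM in all layers was 109, 265 and 210.2 in blade libraries, 7.74, 43.1 and 33.4 in ligule libraries and 224, 81.1 and 136 in sheath libraries. Values of the adaxial L1 were 438, 530.2 and 503 in the blade, 33.2, 10.5 and 18.7 at the ligule and 223, 496 and 687 in the sheath. PMP3 was thus among the abundant members, and its ligule libraries stayed below every neighbour library in spite of the wide spread within regions.

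The heat shock chaperone gene hsp101 (GRMZM2G360681) had 7.61 ± 0.892, 1.86 ± 0.382 and 4.52 ± 1.04 FPKM in blade, ligule and sheath of all layers, and 9.19 ± 2.42, 1.12 ± 1.3 and 4.53 ± 2.37 in the adaxial L1. Sheath replicate 1 of the adaxial L1, at 1.80, fell within the ligule range. The summed FPKM of all 17 listed heat shock and dehydrin genes was 1588 to 1702 in the adaxial L1 ligule and 2022 to 3330.1 in its neighbours. The part of this difference in the hsp101 value was not tested. AR2 (GRMZM2G059314), for which no role is given here, had 34.7 ± 3.79, 15.2 ± 2.13 and 50.5 ± 14.0 FPKM in all layers and 34.9 ± 6.91, 3.97 ± 2.93 and 92.9 ± 17.0 in the adaxial L1.

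**Figure D3:**
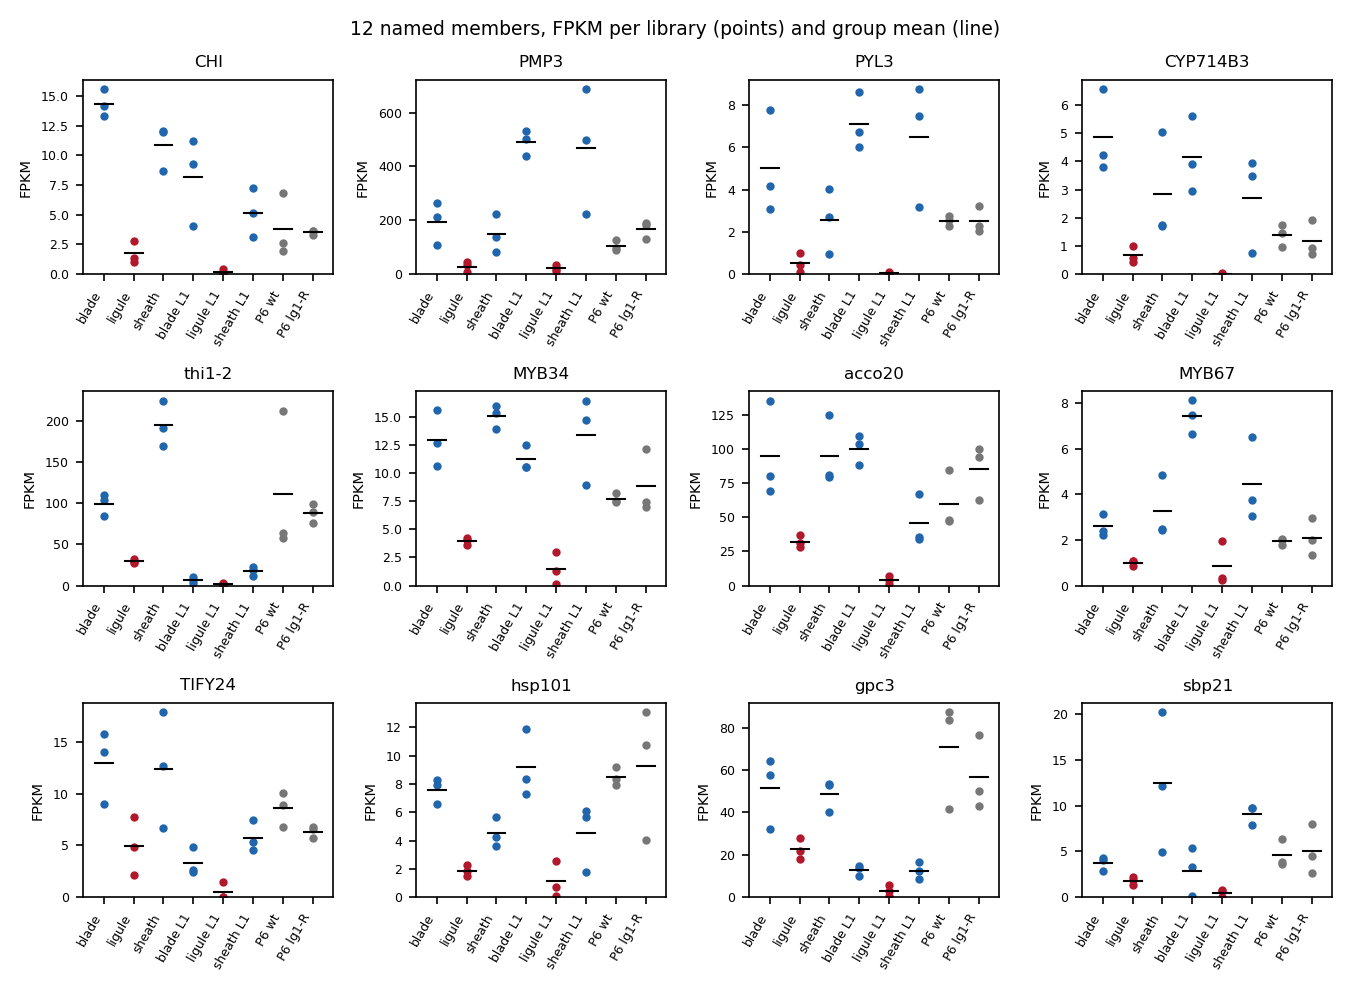
FPKM of 12 named members in each library (points) with the group mean (line), for ligule (red), blade and sheath (blue) and P6 tissue (grey); blade, ligule and sheath without a suffix are all layers, and each panel has its own scale starting at 0. Within each kind of sample the ligule points lie below the blade and sheath points, except for overlaps in all layers for PYL3 and TIFY24 and in the adaxial L1 for sbp21 and hsp101.

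Among unnamed members, GRMZM2G131409 had the deepest trough in all layers. Its FPKM was 27.2, 27.7 and 18.3 in blade libraries, 0.270, 0.331 and 0.0757 in ligule libraries and 11, 9.57 and 6.94 in sheath libraries, so the ligule lay 40.7-fold below the sheath. The adaxial L1 of the blade had 37.1, 9.21 and 71.4 and the ligule 0.112, 0.332 and 0.174, but the sheath had 0.202, 15.7 and 0.794. Sheath replicate 1 lay within the ligule range there, and the sheath mean rests on replicate 2.

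GRMZM2G317743 was next in abundance among the deep troughs, with 95.6, 216 and 92.7 FPKM in blade libraries, 7.78, 13.2 and 13.2 in ligule libraries and 171, 97.9 and 127 in sheath libraries of all layers. The adaxial L1 values were 207, 316 and 168 in the blade, 3.37, 0.721 and 0.628 at the ligule and 116, 207 and 276 in the sheath. Its fold difference rose from 11.6 in all layers to 127 in the epidermis. GRMZM2G124963 had a like pattern, from 6.41-fold to 105-fold, with 0.132 to 0.431 FPKM in the adaxial L1 ligule and 24.7 to 87.8 in its neighbours.

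GRMZM2G017882 and GRMZM2G132154 were 15.6-fold and 8.69-fold below the lower neighbour in all layers. Their adaxial L1 ligule held 2 and 1 counts, which gave ratios of 70.0 (95% counting interval 19.0 to 584) and 150.2 (26.7 to 5959). The sheath libraries of GRMZM2G017882 were uneven there (15.9, 0.215 and 2.53 FPKM, from 102, 4 and 29 counts). Sheath replicate 2 was barely above ligule replicate 1, at 0.172 FPKM from 2 counts. The sheath mean, and with it the ratio, rests largely on sheath replicate 1. The other genes among the 10 deepest by the shallower of the 2 ratios were GRMZM2G016958, GRMZM2G056526 and GRMZM2G049675, at least 5.29-fold below in both. The most abundant member, GRMZM2G310955, had 1019 ± 370 FPKM in the all-layers ligule with 2737 ± 494 for the blade and 3223 ± 1057 for the sheath.

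Levels in the epidermis and in whole pieces were then compared over blade and sheath, leaving out the ligule. The rule set the same floor in both kinds of sample and no direction between them. With edgeR's quasi-likelihood test and Benjamini-Hochberg adjustment over all genes (adjusted p under 0.05), 37 of 96 members differed, 28 of them higher and 9 lower in the adaxial L1. Of all 22334 genes tested 9.91% were called higher and 14.3% lower, and of those past the FPKM floor 14.0% and 7.49%. The members' shares were 29.2% higher and 9.38% lower. The median log2 difference of the members was 0.34, against -0.11 over all genes and 0.07 over genes past the floor. Of 727 genes with a trough in the adaxial L1 only, 154 were called higher and 74 lower, of 25 with a trough in all layers only, 4 and 5, and of 65 genes at least 2-fold above both neighbours, 17 and 3.

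Raised in the epidermis by the largest amounts were 5 unnamed genes and, next to them in size among the named, PMP3. GRMZM2G082055 had 20.6, 33.6 and 32.5 FPKM in the all-layers blade and 12.6, 11.9 and 13.6 in the sheath, against 117, 110.2 and 102 in the blade and 76.1, 128 and 55.1 in the sheath of the adaxial L1 (log2 difference 2.59, SE 0.27, edgeR adjusted p = 5.9e-07). No library of one kind overlapped the other. GRMZM2G512113 (2.22), GRMZM2G041636 (2.14), GRMZM2G038497 (2.12) and GRMZM2G126646 (2.01) had SEs of 0.29 to 0.34. PMP3 was higher by 1.75 (SE 0.40, edgeR adjusted p = 0.0037). MYB67 was called at 1.21 (SE 0.39, edgeR adjusted p = 0.027), a call that was lost on leaving out blade replicate 1 or sheath replicate 1 of the adaxial L1, or blade replicate 3 or 4 or sheath replicate 3 or 5 of all layers (1.03 to 1.18, adjusted p 0.053 to 0.073), and with limma on log2(FPKM + 0.1) (0.96, adjusted p = 0.090).

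Members that were lower in the epidermis were led by thi1-2, at -3.46 (SE 0.28, edgeR adjusted p = 3.3e-08). GRMZM2G164440 had 337 to 628 FPKM in the all-layers blade and sheath and 19.6 to 99.3 in the adaxial L1 (-3.03, SE 0.41, adjusted p = 3.0e-05 by edgeR). GRMZM2G031904 fell by 2.12 (SE 0.61), gpc3 by 1.70 (SE 0.31) and GRMZM2G016958 by 1.28 (SE 0.39). GRMZM2G310955 was lower by 1.21 on the same scale (-1.21, SE 0.24). In each of these members the epidermis held less than the whole piece on both sides of the ligule. Not called were acco20 (-0.25, SE 0.28), CHI (-0.69, SE 0.42), MYB34 (0.05, SE 0.34), CYP714B3 (0.10, SE 0.44), PYL3 (1.16, SE 0.50), TIFY24 (-1.3, SE 0.50), hsp101 (0.38, SE 0.39), AR2 (0.63, SE 0.28) and sbp21 (-0.17, SE 0.57).

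**Figure D4:**
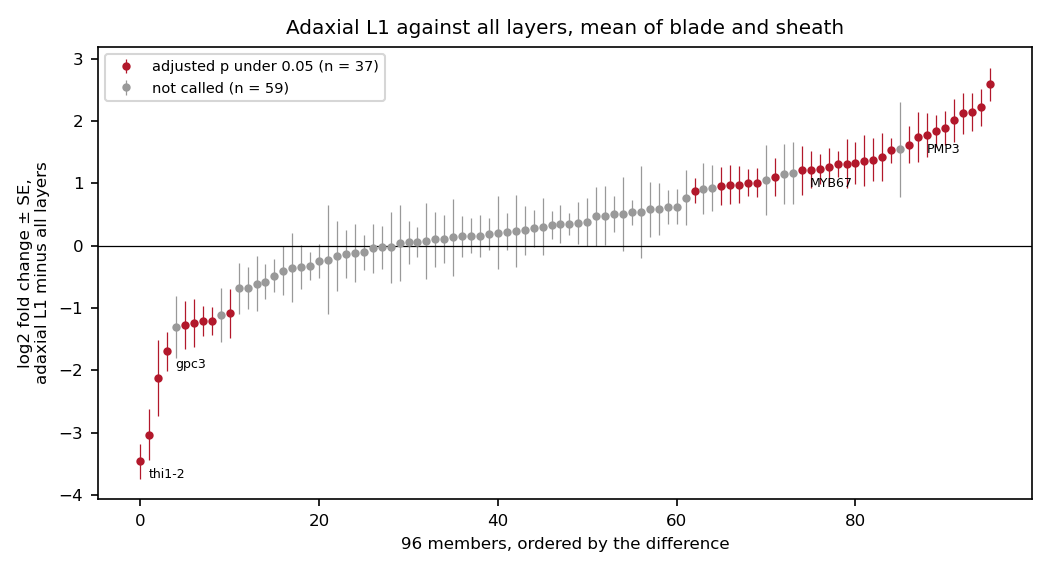
Log2 difference between adaxial L1 and all layers (mean of blade and sheath) with its SE for each of the 96 members in order of size, called members in red and 4 labelled. The 28 called higher stand at the right and the 9 called lower, led by thi1-2, at the left.

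The split depends on the scale. With limma on log2(FPKM + 1) 26 members were called higher and 17 lower, and on log2(FPKM + 0.1) 21 and 11. These scales moved the median of the members from 0.34 with edgeR to 0.04 and 0.05, and that of all genes to -0.29 and -0.40. Members had to pass the FPKM floor in the adaxial L1 and all genes did not, so nothing is read from that contrast.

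Blade and sheath, the neighbours on either side of the trough, were compared next. The rule reads the lower of them and sets no direction between them, although it reads the same libraries. In all layers 5 of 96 members differed (edgeR adjusted p under 0.05), against 1.58% of all 22205 genes tested and 0.726% of those past the floor. In the adaxial L1 6 of 94 differed, against 1.96% of 18761 and 1.70%, with GRMZM2G056513 and GRMZM5G845960 too low to test. At an unadjusted p under 0.05 there were 22 members in all layers (22.9%, against 8.99% of all genes and 6.02% of those past the floor). In the adaxial L1 there were 19 (20.2%, against 12.4% and 11.4%). Of genes with a trough in the adaxial L1 only, the shares were 17.1% and 14.0%. The members went in both directions, with log2 differences of -1.70 to 1.89 in all layers and -3.71 to 2.83 in the adaxial L1. Their medians, in which opposite directions cancel, were 0.06 and 0.15.

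GRMZM5G825287 was the 1 member called in both kinds of sample, and it was higher in the sheath. Its FPKM in all layers was 76.6, 114 and 90.4 in blade libraries, 31.1, 39.8 and 27.8 in ligule libraries and 312, 219 and 317 in sheath libraries. Adaxial L1 values were 206, 115 and 164 in the blade, 12.1, 11 and 22.8 at the ligule and 1120.2, 1006 and 773 in the sheath. As log2 differences, blade minus sheath was -1.54 (SE 0.26, edgeR adjusted p = 0.0087) and -2.48 (SE 0.29, edgeR adjusted p = 0.00062). The all-layers call was lost without blade replicate 3 (-1.41, adjusted p = 0.052) or blade replicate 5 (-1.52, adjusted p = 0.061).

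The other called members were picked out after their values were seen, apart from GRMZM2G016958 and thi1-2. Higher in the all-layers blade were GRMZM2G016958 (1.89, SE 0.33), GRMZM2G470075 (1.5, SE 0.30) and GRMZM2G555967 (1.17, SE 0.26), and thi1-2 was higher in the sheath (-0.90, SE 0.21, edgeR adjusted p = 0.049). The thi1-2 call was lost without any 1 of the 6 libraries (-1 to -0.79, adjusted p 0.080 to 0.25) with RLE size factors (adjusted p = 0.052) and with a replicate block (adjusted p = 0.095). GRMZM2G016958 lost its call without blade replicate 4 or 5 or sheath replicate 5 (1.76 to 1.95, adjusted p 0.050 to 0.067), GRMZM2G470075 without blade replicate 3 or 4 or sheath replicate 5 (1.16 to 1.61, adjusted p 0.057 to 0.13), and GRMZM2G555967 without blade replicate 4 or 5 or any sheath replicate (1.06 to 1.32, adjusted p 0.068 to 0.18) and with the block (adjusted p = 0.13). The count of 5 became 2 without blade replicate 3, 1 without blade replicate 4, blade replicate 5 or sheath replicate 5, 3 without sheath replicate 3 and 3 with the replicate block.

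In the adaxial L1, GRMZM5G825515 was higher in the sheath, with 26.9, 35.0 and 40.7 FPKM there against 3.28, 1.96 and 2.03 in the blade and 1.43, 0.171 and 0.395 in the ligule (-3.71, SE 0.51, edgeR adjusted p = 0.0019). Blade and sheath libraries were far apart, while in all layers they stood at 5.34 to 6.94 and 11.9 to 16.5 (-1.17, SE 0.27, edgeR adjusted p = 0.053). Higher in the adaxial L1 blade were GRMZM2G177934 (2.60, SE 0.55), GRMZM2G053720 (2.50, SE 0.47), GRMZM5G811847 (1.41, SE 0.32) and GRMZM2G513713 (1.37, SE 0.29). GRMZM5G811847 lost its call without any 1 of the 6 libraries (1.31 to 1.54, adjusted p 0.069 to 0.13) and GRMZM2G513713 without any but blade replicate 2 (1.23 to 1.49, adjusted p 0.057 to 0.12) and with limma on log2(FPKM + 1) and log2(FPKM + 0.1) (adjusted p = 0.061 and 0.081). With the replicate block both calls were lost (adjusted p = 0.072 and 0.055), and the count became 4. GRMZM2G177934 lost it without blade replicate 1 or 2 or sheath replicate 1 or 3 (2.22 to 2.62, adjusted p 0.067 to 0.097), and GRMZM2G053720 without blade replicate 2 or sheath replicate 1 or 2 (2.02 to 2.36, adjusted p 0.053 to 0.074) and with limma on log2(FPKM + 0.1) (2.33, adjusted p = 0.056). The count of 6 became 3 without blade replicate 1, 2 without sheath replicate 1 and 3 without sheath replicate 3.

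Whether the difference between blade and sheath itself differed between epidermis and whole pieces was tested as an interaction. By edgeR 0 of 96 members were called, against 0.157% of 22334 genes. At an unadjusted p under 0.05 there were 8 members (8.33%, against 7.23% of all genes and 3.66% of those past the floor). DESeq2 called 1 and limma 0. The member with the smallest adjusted p was GRMZM5G825515 (-2.51, SE 0.57, edgeR adjusted p = 0.098), which DESeq2 called (adjusted p = 0.0020).

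The P6 libraries, which the rule did not read, give the level of the members 1 plastochron earlier in a wider stretch of the leaf base. The mean of wild-type P6 lay between the P7 ligule and the lower neighbour of all layers in 53 members, at or above the lower neighbour in 32 (above both neighbours in 17) and below the ligule in 11. In 64 members all 3 wild-type P6 libraries lay above all 3 all-layers ligule libraries (66.7%, against 18% of the genes past the floor) and in 3 all lay below (3.13%, against 22.0%). The ligule was low by the rule, so nothing is read from these counts, and stage and dissected stretch cannot be told apart here.

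Among the members that are named here, GRMZM2G317743 and GRMZM2G164440 stood well above both P7 neighbours at P6. GRMZM2G317743 had 333, 502 and 452 FPKM in wild type, against at most 216 in any all-layers P7 library. GRMZM2G164440 had 1385, 742 and 1238 in wild-type P6, against 32.7, 26.8 and 50.6 in the all-layers ligule and 337 to 628 in its neighbours. At the other end was GRMZM2G434098, the least abundant member, with 0.0761, 0.122 and 0.0254 FPKM in wild-type P6 and 0, 0 and 0.0477 in lg1-R, against 0.865 to 1.48 in the P7 ligule and 1.90 to 2.91 in its neighbours.

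Members with a gene name mostly had wild-type P6 means between the all-layers ligule and its lower neighbour. The exceptions were gpc3 (70.8 FPKM) and hsp101 (8.51), above both neighbours, and thi1-2 (111) and sbp21 (4.59), above the lower neighbour only. CHI had 6.84, 2.59 and 1.96 FPKM in wild type, MYB34 7.53, 7.38 and 8.20, and acco20 84.7, 48.1 and 47.1. The wild-type values of thi1-2 were 212, 64.1 and 57.7, with replicate 1 far above the other 2. PYL3 was even at 2.25, 2.75 and 2.57.

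The comparison of lg1-R with wild type at P6 asks which genes depend on LG1. The lg1 transcript was not lower in the libraries labelled lg1-R (1.59, 1.42 and 2.33 FPKM) than in wild type (0.465, 1.77 and 0.998), so it does not serve as a check of the labels. By edgeR 0 of 94 members tested differed, against 1 gene of 21249 (0.00471%), and DESeq2 called 3 and limma 0. GRMZM2G434098 and GRMZM5G833991 were too low to test. At an unadjusted p under 0.05 there were 14 members (14.9%, against 6.59% of all genes and 5.6% of those past the floor), 12 higher and 2 lower in the libraries labelled lg1-R. The share is not particular to the members. It was 15.4% of genes with a trough in the adaxial L1 only and 16% of those with one in all layers only. Of genes at least 2-fold above both neighbours it was 31%.

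More members lay above than below 0. Their median log2 difference was 0.19, with 62 of 94 above 0, against medians of -0.01 over all genes and -0.00 over genes past the floor. The 64 tested genes at least 2-fold above both neighbours in both ligules had a median of -0.26, with 53 below 0. The 722 tested genes with a trough in the adaxial L1 only had no such shift, with a median of -0.02, 347 above 0 and 375 below. The 25 with a trough in all layers only had a median of 0.16, with 18 above 0 and 7 below. No score over the members was tested, and the 94 values come from the same 6 libraries.

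**Figure D5:**
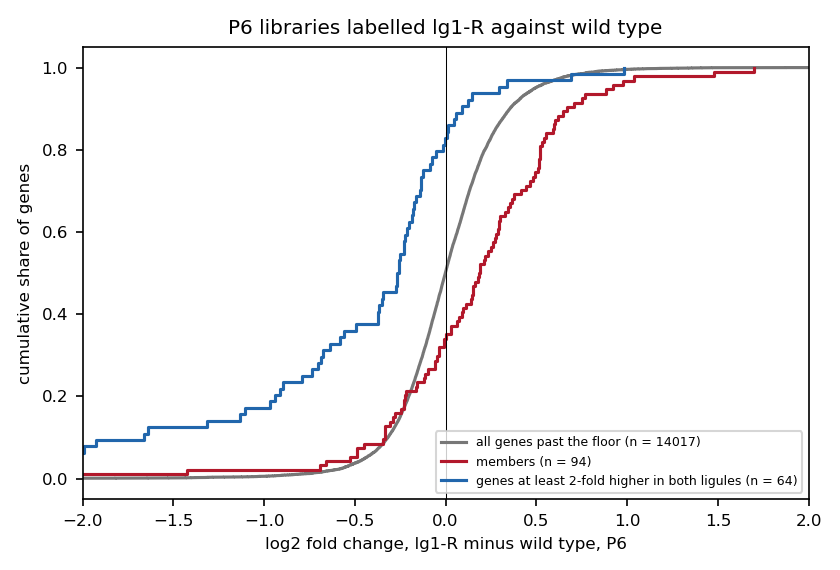
Cumulative share of genes (y axis) by log2 difference at P6, libraries labelled lg1-R minus wild type (x axis, drawn from -2 to 2, so that steps beyond are not shown), for members (red, n = 94), genes at least 2-fold above both neighbours in both ligules (blue, n = 64) and genes past the floor (grey, n = 14017). The red curve lies to the right of the grey one over most of its length and the blue one to the left.

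The genes with the smallest p-values, apart from PMP3 and GRMZM2G131409, were chosen after their values were seen. GRMZM5G822895 had 69.9, 40.6 and 50.1 FPKM in wild type and 160.1, 141 and 112 in the libraries labelled lg1-R, which did not overlap (log2 difference 1.48, SE 0.28, edgeR adjusted p = 0.13). GRMZM2G131409 had 2.07, 2.89 and 2.29 against 9.17, 9.06 and 3.08 (1.70, SE 0.44, edgeR adjusted p = 0.37), and GRMZM5G811847 had 172, 153 and 151 against 299.8, 256 and 235 (0.88, SE 0.22, edgeR adjusted p = 0.31). These are the 3 that DESeq2 called (adjusted p = 0.00034, 0.022 and 0.046), and without lg1-R replicate 3 edgeR called GRMZM5G822895 (1.68, adjusted p = 0.045) and GRMZM2G131409 (2.12, adjusted p = 0.025).

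PMP3 had 125, 96.6 and 90.8 FPKM in wild type and 131, 181 and 188 in the libraries labelled lg1-R (0.77, SE 0.21, edgeR adjusted p = 0.39), again without overlap. The named transcription factor genes differed by 0.28 (MYB34, SE 0.21), 0.19 (MYB67, SE 0.29) and 0.18 (sbp21, SE 0.36). Of the 2 members that were lower at an unadjusted p under 0.05, GRMZM2G149024 had 17.6, 12.4 and 6.11 against 1.16, 5.01 and 0.663 FPKM (-2.35, SE 0.66, edgeR adjusted p = 0.40). By family, 0 of 20 SBP-box genes and 0 of 31 MYB genes were called by edgeR in this comparison.

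Within the all-layers groups, members were often lowest in the same library. Of the 28 genes called higher in the epidermis, 14 had their lowest blade value in replicate 3, 14 their lowest ligule value in replicate 3 and 17 their lowest sheath value in replicate 4. The same libraries held the lowest value for 29, 24 and 26 of the 59 members not called and for 4, 1 and 3 of the 9 called lower. Of the genes past the floor, 32.9%, 33.8% and 38.2% had their lowest value in these libraries. The summed epidermis markers were lowest in the same 3 libraries, at 203, 202 and 263 FPKM, against 246 and 247, 216 and 233, and 279 and 336 in the other libraries of each group. The marker ocl1 followed the sum in the blade, with 56.6 FPKM in replicate 3 against 71.1 and 74.9. It did not in the other regions, with 37.7 FPKM in ligule replicate 3 against 33.6 and 31.6, and 62.6 in sheath replicate 4 against 51.8 and 76.1. PMP3 had the pattern of the sum, with its lowest value in each region in these libraries. Whether the share of epidermis in a piece has a part in it was not tested.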

How the data were processed

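Polyadenylated RNA of laser-microdissected tissue was amplified in 2 rounds and sequenced, per the labels' protocols. The authors deposited expected counts (estimated counts per gene, not always whole) and FPKM, each for 109715 identifiers. The submitters' processing notes name TopHat2 2.0.10 and Cuffdiff 2.1.1; the genome build, annotation and strandedness were not given in the sources used here. Reads of overlapping antisense genes therefore cannot be told apart, and near-identical paralogs may share reads.

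Members were found from group means of FPKM. Counts were rounded and tested with edgeR 4.0.16 in R 4.3.3 (quasi-likelihood, robust, TMM, filterByExpr with a minimum count of 10 and a minimum total of 15), with Benjamini-Hochberg adjustment over all genes tested, which held 94 to 96 of the 96 members. One fit used the 6 P6 libraries, one each set of 9 P7 libraries, and one all 18. Ratios with a ligule mean of 0 used 0.01 FPKM. Where the ligule had 1 to 3 counts, the ratio has an exact 95% interval of the counts. Only the fits were tried on simulated counts, drawn with the same fixed spread for all genes, with DESeq2 and limma for the P6 comparison only. The member rule, the ratios and the counting intervals were not tried on simulated data.

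The tests were repeated with DESeq2 1.42.0, with RLE size factors in edgeR, without the filter, with limma 3.58.1 on log2(FPKM + 1) or log2(FPKM + 0.1) where 3 libraries had at least 1 FPKM, and with a replicate block. In the tests each library of the groups compared was left out in turn, so the ligule libraries stayed in all P7 fits. The P6 test was also made in a fit of all 24 libraries. The rule was run with other settings and without each of the 18 P7 libraries. Same-numbered libraries did not deviate together (correlations of -0.47 to 0.28 between blade and sheath in all layers, -0.07 to 0.03 in the adaxial L1 and -0.19 to 0.05 at P6), so the main fits have no block.

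The members, lists and tests were chosen with earlier results of these data known. Genes named are the 10 deepest troughs, every member with a gene name, up to 10 members called in lg1-R (none was), members called between blade and sheath in both kinds of sample, up to 5 per direction with the largest called difference between layers, the most and least abundant member, and 3 genes on either side of the threshold. Sequences and promoter motifs were not analysed here.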

Additional observations from a re-analysis of the deposited data

How the results depend on the processing

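Of the main counts, those of the comparison of adaxial L1 with all layers stayed within 1.5 times of 37 in every setting run (32 to 39 on leaving out 1 library). For lg1-R the count of 0 became 3 with DESeq2 and 9 with no filter on low counts (7 higher, 2 lower), and was 0 to 2 on leaving out 1 library; it stayed 0 with a replicate block and in a fit of all 24 libraries. Blade against sheath in all layers went from 5 to 11 with DESeq2, 11 with no filter and 3 with the replicate block, and to 1 to 5 on leaving out 1 library. In the adaxial L1 it went from 6 to 14 with no filter and to 2 to 5 on leaving out 1 library, and the block gave 4. The interaction went from 0 to 1 with DESeq2 and 3 with no filter, and was 0 with the block and on leaving out any 1 blade or sheath library. The cause of these shifts was not tested. The block could not be fitted for the comparison of layers, since replicate numbers lie within layers; the motif search was not run. No call of a named member changed direction in the settings run. Besides the losses given in the report, the layer calls of GRMZM2G317743, AC233893.1_FG006 and GRMZM2G177934 were lost in 8, 7 and 3 of 17 settings.

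The number of members depends on the fold: 213 genes at 1.5-fold and 38 at 3-fold. A floor of 1 FPKM gave 136, a floor of 5 gave 70, TMM-normalised CPM gave 138 (92 of the 96 among them) and group medians gave 96, of which 72 were the same genes. Leaving out each of the 18 P7 libraries gave 89 to 113 genes, and 49 of the 96 members were kept in all 18. Depth limits the ratios of the 11 members with at most 3 counts in the adaxial L1 ligule.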
